A study of Mus musculus with 48 samples.

Results

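Monocytic macrophages that stayed in control medium with MCSF alone were compared after 3 days and after 1 day of culture. The comparison holds the 6 arrays titled CD115 with a day and no added partner, of 48 arrays in the series: 3 arrays at 3 days and 3 arrays at 1 day. In the wider study, macrophages of monocytic origin and Kupffer cells, which are macrophages that reside in the liver, were kept with Ito cells, with CD146 cells of the liver sinusoids, with HGF, or with MCSF alone. The monocytes had been sorted with magnetic beads on CD115, the receptor of MCSF, from blood of Balbc male mice, and all groups first spent 1 day in MCSF. Cells of the 3 day group had therefore been 4 days in MCSF in all, against 2 days in the 1 day group. MCSF was present in both groups, so that no culture without it enters the comparison, and the freshly sorted monocyte was not measured in these arrays. The titles call the replicates of each group biological. Whether they came from separate animals, pools or wells is not stated in the labels, and the p-values measure only the spread between these arrays.

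Values are log2 signals of gene expression arrays, quantile normalized over the 6 arrays, with 1 probe set for each of 19505 genes. A difference is always the 3 day mean minus the 1 day mean in log2 units, given with its standard error (SE), and a gene was called changed at a Benjamini-Hochberg adjusted p under 0.05 in limma. The negative control probe sets averaged 5.58 to 5.95 on the 3 day arrays, against 5.77 to 6.10 on the 1 day arrays. A gene under that mean on every array of a group was taken as not above background there, and its change is given as a bound ("at least N-fold"). Arrays carry no read depth, and the small number of arrays limits the precision. Since RNA was measured in bulk, fewer cells of a type and less RNA per cell cannot be told apart.

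One array of the 3 day group stood apart from its group. Replicates 1 and 2 of the 3 day group correlated at 0.9943 across genes, whereas replicate 3 correlated with them at 0.9762 and 0.9784. The 1 day arrays correlated among themselves at 0.9904 to 0.9926. After each gene was centred on its mean over the 48 arrays, a description added once this array was seen to lie apart, replicate 3 correlated at 0.5476 with the other 3 day MCSF arrays. The same measure was 0.594 with the monocytic 3 day arrays kept with Ito cells and 0.553 with those kept with HGF. For replicate 1 these values were 0.8352 with its own group, 0.2265 with the Ito group and 0.3229 with the HGF group. For replicate 3 it was 0.4006 with the monocytic 3 day arrays kept with CD146 cells. The median absolute difference of replicate 3 was 0.2854 from its own group and 0.2598 from the Ito group. It was 0.2904 from the HGF group and 0.2897 from the CD146 group. Replicate 3 thus lay nearer to the Ito group than to the group its title gives by both measures, and to the HGF group by correlation only. Why was not tested. Each result below is given with all 6 arrays and, where it matters, without that array. In lists of 3 values the replicates stand in the order 1, 2, 3.

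Blood monocytes develop into macrophages when MCSF signals through its receptor Csf1r. The cells lose the surface and enzyme profile of the circulating monocyte and gain large lysosomes, receptors for dead cells and machinery to export lipid and iron. Freshly isolated and adhering monocytes are also known to make inflammatory cytokines and chemokines, the secreted proteins that call other leukocytes into a tissue. Tissue macrophages at rest make few of these and instead clear dead cells and recycle iron.

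The change over these days was broad, and counts in gene lists are to be read against it. With all 6 arrays 5115 of 19505 genes were called, 26.2%, of which 2587 were higher (13.3% of all genes) and 2528 were lower (13%). Of the 5115 genes, 1081 were not above background in either group and 645 in 1 group only. Without replicate 3 the count was 6324 genes, 32.4%, with 3270 higher (16.8%) and 3054 lower (15.7%). Both fits called 4857 genes in the same direction, 258 were called only with all 6 arrays and 1467 only without replicate 3. Among genes called with 6 arrays, 3206 changed more than 2-fold and 163 more than 16-fold. In 8367 genes, 42.9%, the 3 day arrays did not overlap the 1 day arrays. The balance of higher and lower calls follows from the scaling: on the deposited values 65.4% of 5647 calls were higher, and after median centring 34.5% of 5961 calls were higher. The median difference over all genes was 0.01 after quantile normalization, 0.13 on the deposited values and -0.20 after median centring.

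**Figure D1:**
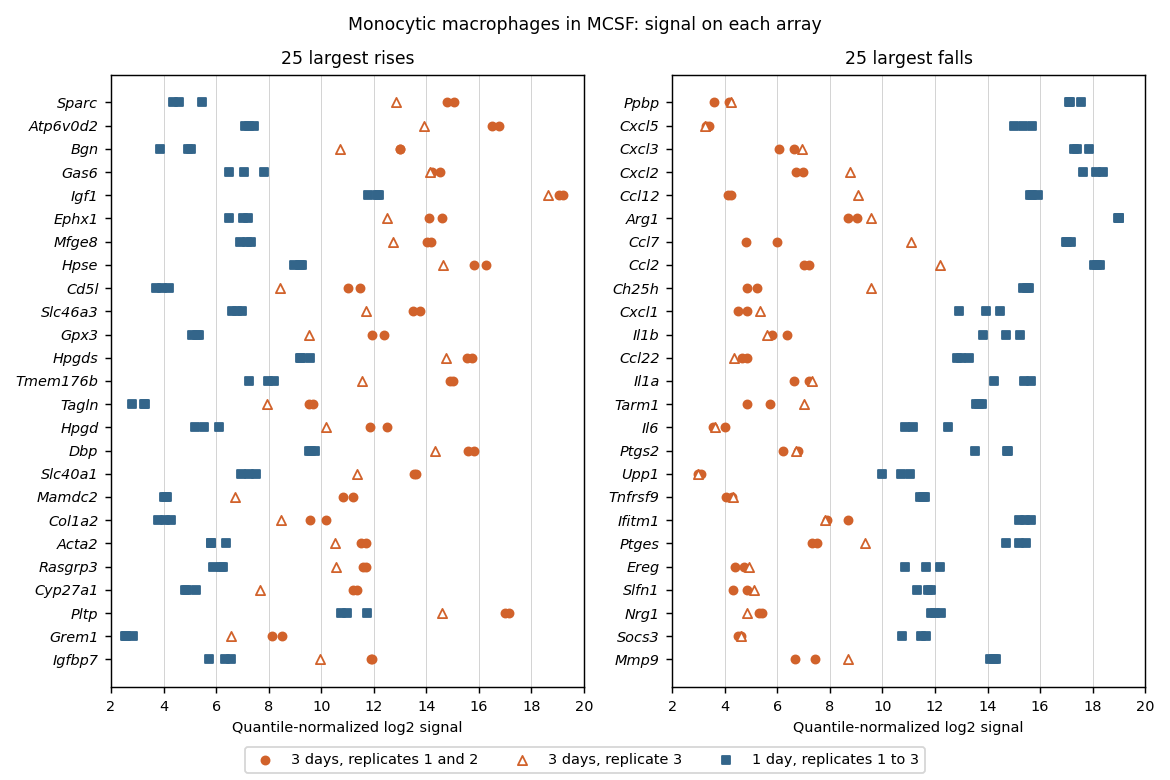
Quantile-normalized log2 signal (x axis) of the 25 largest rises (left) and 25 largest falls (right) among genes called with and without 3 day replicate 3. Only genes whose 3 day and 1 day arrays did not overlap were taken, so that their separation follows from the choice. Each point is 1 array. The 3 day arrays are circles, with a triangle for replicate 3, and the 1 day arrays are squares. The triangle of rising genes often lies nearer to the squares.

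The largest falls were in chemokines that attract neutrophils. Of the 7 genes of this group, 6 fell and none rose in limma, nor did any at an unadjusted p under 0.05 (0 genes), with a median difference of -10.56 against 0.01 over all genes. All 6 also fell without replicate 3. The mean level of the group was 6.29, 6.38 and 6.93 on the 3 day arrays, against 14.85, 15.31 and 15.06 on the 1 day arrays. Cxcl1, Cxcl2, Cxcl3 and Ppbp lie near each other on mouse chromosome 5. The 250 bases before the start of each are shown because these genes fell together. The windows of 3 of them hold a match to a kappa B motif, the sequence that NF-kappa B, a regulator of inflammatory genes, binds, and that of Ppbp, the gene that fell furthest, holds none. The windows are RefSeq sequences of GRCm38.p6, on the plus strand, 5′ to 3′, with matches to GGNNTTTCC, a short form of the kappa B motif, on either strand in capitals.
Cxcl1 at chr5:90890995-90891244: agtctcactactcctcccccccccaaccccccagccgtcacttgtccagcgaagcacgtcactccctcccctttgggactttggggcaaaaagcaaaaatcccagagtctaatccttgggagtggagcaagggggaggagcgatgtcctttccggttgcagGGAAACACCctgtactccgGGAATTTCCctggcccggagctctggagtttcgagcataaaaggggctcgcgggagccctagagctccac
Cxcl2 at chr5:90903649-90903898: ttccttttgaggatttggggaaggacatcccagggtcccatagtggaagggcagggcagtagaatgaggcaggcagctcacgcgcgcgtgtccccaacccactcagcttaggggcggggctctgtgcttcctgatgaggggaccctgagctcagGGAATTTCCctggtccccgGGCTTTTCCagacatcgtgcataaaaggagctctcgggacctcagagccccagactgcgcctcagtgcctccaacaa
Cxcl3 at chr5:90785851-90786100: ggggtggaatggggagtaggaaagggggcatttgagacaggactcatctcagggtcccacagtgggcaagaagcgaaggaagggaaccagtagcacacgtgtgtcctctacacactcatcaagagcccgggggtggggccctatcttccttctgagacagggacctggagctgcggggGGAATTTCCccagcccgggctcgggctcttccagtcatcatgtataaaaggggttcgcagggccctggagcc
Ppbp at chr5:90768268-90768517: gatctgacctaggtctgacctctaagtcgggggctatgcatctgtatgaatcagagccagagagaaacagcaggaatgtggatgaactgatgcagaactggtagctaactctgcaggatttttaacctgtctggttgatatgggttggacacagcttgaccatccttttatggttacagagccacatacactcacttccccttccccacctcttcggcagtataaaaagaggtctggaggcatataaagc
The string GGAATTTCC is present in the Cxcl1, Cxcl2 and Cxcl3 windows. A match was held by 3 of 6 windows of this gene group (6 of its 7 genes matched the table), against 1619 of 32851, 4.93%, over all promoter windows of the RefSeq table. Those 3 are the Cxcl1, Cxcl2 and Cxcl3 windows printed above. Cxcl5, which fell as well, is not printed and was not among the genes with a match. A match is a run of letters and not a measured site, and no binding was measured in these cells.

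Ppbp, which encodes the precursor of a CXC chemokine also stored in platelets, read 3.58, 4.16 and 4.23 in the 3 day arrays, against 17.14, 17.54 and 17.11 in the 1 day arrays. The groups were far apart, and the 3 day values lay below the negative controls. It was at least 2854-fold lower at 3 days (limma adjusted p = 2.2e-08). Cxcl5, a ligand of the neutrophil receptor Cxcr2, read 3.29, 3.40 and 3.24 at 3 days, against 15.01, 15.70 and 15.35 at 1 day and was at least 759-fold lower (adjusted p = 2.2e-08). Cxcl1, a close relative, read 4.86, 4.52 and 5.35 at 3 days, against 12.93, 14.47 and 13.93 at 1 day and was at least 254-fold lower. Both were at background in all 3 arrays of the later time. Cxcl3 and Cxcl2 stayed measurable: Cxcl3 read 6.06, 6.63 and 6.94 at 3 days, against 17.40, 17.87 and 17.28 at 1 day, a difference of -10.97 ± 0.27 (SE), and Cxcl2 read 6.98, 6.72 and 8.75 at 3 days, against 17.62, 18.39 and 18.11 at 1 day, a difference of -10.56 ± 0.49. On replicate 3 Cxcl2 was the highest of the 3 day values but still far under every 1 day value. Pf4, platelet factor 4, which macrophages make too, differed by -4.37 ± 0.31 (adjusted p = 3.2e-05). Ppbp and Pf4 are also markers of platelets, and of 9 platelet and megakaryocyte markers 3 rose and 2 fell, and the 2 that fell were Ppbp and Pf4. The mean level of that list was 6.10 to 6.25 on the 3 day arrays, against 7.73 to 7.85 on the 1 day arrays. Gp6 and Gp9, receptors of the platelet surface, were not above background in either group, and Itga2b, the platelet integrin, read 5.90 to 5.96 at 3 days, against at most 6.20 at 1 day. The part of platelets in the fall of Ppbp and Pf4 was not tested. Cxcl15, an epithelial chemokine, was not above background at either time. Without replicate 3 Cxcl2 differed by -11.19.

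Chemokines that attract monocytes, eosinophils and lymphocytes fell as well. Of 14 CC chemokines 11 fell and none rose (0 at an unadjusted p under 0.05), with a median difference of -3.80, and 12 fell without replicate 3. Ccl2, the main attractant of Ccr2+ monocytes, read 7.20, 7.02 and 12.18 in the 3 day arrays, against 18.16, 18.28 and 18.05 in the 1 day arrays. The difference was -9.37 ± 1.16 (adjusted p = 0.00065) with all arrays and -11.06 without replicate 3, whose value lay far above the other 3 day arrays and far below the 1 day arrays. Its neighbours Ccl7 and Ccl12, which act on the same receptor in mice, showed the same split: Ccl7 read 4.81, 5.98 and 11.10 at 3 days, against 17.03, 17.00 and 17.17 at 1 day, and Ccl12 read 4.13, 4.24 and 9.06 at 3 days, against 15.69, 15.62 and 15.92 at 1 day. Without replicate 3 the difference of Ccl7 was -11.67, and Ccl12, then at background at 3 days, was at least 925-fold lower. By contrast Ccl22, a ligand of Ccr4, was at background on all 3 day arrays, with 4.64, 4.85 and 4.34 at 3 days, against 13.29, 12.85 and 12.99 at 1 day, and was at least 153-fold lower. Ccl17, the other Ccr4 ligand, was at least 5.48-fold lower, and Ccl24, an eosinophil attractant, was at least 26.3-fold lower. Ccl3 and Ccl4, which attract monocytes and T cells, were 15.8-fold lower and 14.6-fold lower. Ccl5 did not pass with 6 arrays (difference -0.60 ± 0.36, adjusted p = 0.267) and passed without replicate 3 (difference -1.01, adjusted p = 0.00975).

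Other chemokines and the chemokine receptors changed in both directions. Of 8 other CXC and CX3C chemokines 3 rose and 1 fell. Cxcl12, the ligand of Cxcr4 that holds leukocytes in bone marrow, read 8.24, 8.73 and 6.76 at 3 days, against 3.81, 3.76 and 3.65 at 1 day and was at least 3.95-fold higher (adjusted p = 0.00027). Cxcl16, a membrane-bound chemokine that also takes up oxidised lipoprotein, was 3.53-fold higher, and Cxcl14 was 5.05-fold lower. Cxcl10, an interferon-linked chemokine, differed by -0.70 ± 0.37 and did not pass. Of 12 chemokine receptors 3 rose and 6 fell. Ccr7, which guides cells to lymph nodes, was 21.1-fold lower, and Ccr1, a receptor of inflammatory CC chemokines, was 27.0-fold lower. Ccr2, the receptor that brings monocytes out of the marrow, read 6.34, 6.41 and 7.05 in the 3 day arrays, against 10.28, 9.84 and 9.66 in the 1 day arrays, a difference of -3.32 ± 0.26 (adjusted p = 5.4e-05). Cxcr3 and Ccrl2, a receptor that binds without signalling, were 2.78-fold higher and 6.79-fold higher. Cx3cr1, the fractalkine receptor of patrolling monocytes, did not pass (adjusted p = 0.201). Without replicate 3 Ccrl2 was 12.6-fold higher.

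Cytokines and lipid mediators of inflammation fell with the chemokines. Of 22 genes 18 fell and none rose (0 at an unadjusted p under 0.05), with a median difference of -3.62, and the same number fell without replicate 3. Il1b, the precursor of interleukin-1 beta, read 5.78, 6.37 and 5.61 in the 3 day arrays, against 13.82, 15.24 and 14.70 in the 1 day arrays. No array of the later time came within 7 log2 units of the 1 day arrays, and the difference was -8.66 ± 0.36 (adjusted p = 2.2e-06). Il1a read 6.65, 7.21 and 7.31 at 3 days, against 14.26, 15.67 and 15.38 at 1 day, a difference of -8.05 ± 0.36. The interleukin-1 antagonist Il1rn was 19.3-fold lower. Il6 read 3.55, 3.99 and 3.61 at 3 days, against 11.17, 12.49 and 10.86 at 1 day, at background on all 3 day arrays, and was at least 52.7-fold lower (adjusted p = 5e-06). Its window is given because it holds the same motif, in the form GGATTTTCC, as do 7 of 21 windows of this gene group (16 of its 22 genes matched the table). The short form was taken up after a search with 1 more G in front, which 3 of these 21 windows, 3 of the 6 windows of the neutrophil-attracting group and 464 of all 32851 windows (1.41%) held.
Il6 at chr5:30012864-30013113, plus strand, matches to GGNNTTTCC in capitals: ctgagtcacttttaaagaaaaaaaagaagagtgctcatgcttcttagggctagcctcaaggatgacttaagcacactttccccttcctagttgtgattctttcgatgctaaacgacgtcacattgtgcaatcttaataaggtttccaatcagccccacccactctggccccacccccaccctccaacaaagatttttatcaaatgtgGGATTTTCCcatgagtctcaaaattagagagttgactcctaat
Tnf, tumour necrosis factor, was 17.5-fold lower (adjusted p = 0.00071), and Osm, oncostatin M, was 21.7-fold lower. Il10, the anti-inflammatory cytokine, read 5.29, 5.29 and 5.57 at 3 days, against 5.72, 5.58 and 6.14 at 1 day and did not pass (adjusted p = 0.176). Nos2, the inducible nitric oxide synthase, read 3.59, 4.29 and 4.25 at 3 days, against 5.74, 5.53 and 5.90 at 1 day: it passed (adjusted p = 0.00127), but the 3 day arrays were at background and the 1 day arrays close to it, so that no fold is given. Without replicate 3 Tnf was 26.6-fold lower.

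The prostaglandin pathway changed at opposite ends. Ptgs2, cyclooxygenase-2, read 6.79, 6.22 and 6.71 in the 3 day arrays, against 13.51, 14.78 and 14.73 in the 1 day arrays, and Ptges, the synthase that makes prostaglandin E2 from its product, read 7.50, 7.31 and 9.34 at 3 days, against 14.70, 15.47 and 15.21 at 1 day. Both were lower in all 3 day arrays, with differences of -7.77 and -7.08 (adjusted p = 2.6e-06 and 3e-05). Pla2g4a, the phospholipase that releases arachidonic acid, was 27.4-fold lower, and Alox5, the first enzyme of leukotriene synthesis, was 13.6-fold lower. In contrast Hpgds, which makes prostaglandin D2, read 15.56, 15.73 and 14.74 at 3 days, against 9.58, 9.22 and 9.19 at 1 day, a difference of 6.01 ± 0.28. Hpgd, which breaks prostaglandins down, read 12.50, 11.87 and 10.18 at 3 days, against 6.10, 5.18 and 5.54 at 1 day and was 60.1-fold higher. In replicate 3 both lay between the other 3 day arrays and the 1 day arrays. In all, 3 of 18 genes of the pathway rose and 5 fell, 4 and 7 without replicate 3. Without replicate 3 Ptges differed by -7.72, Pla2g4a was 43.5-fold lower, Alox5 was 27.7-fold lower and Hpgd was 95.6-fold higher.

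**Figure D2:**
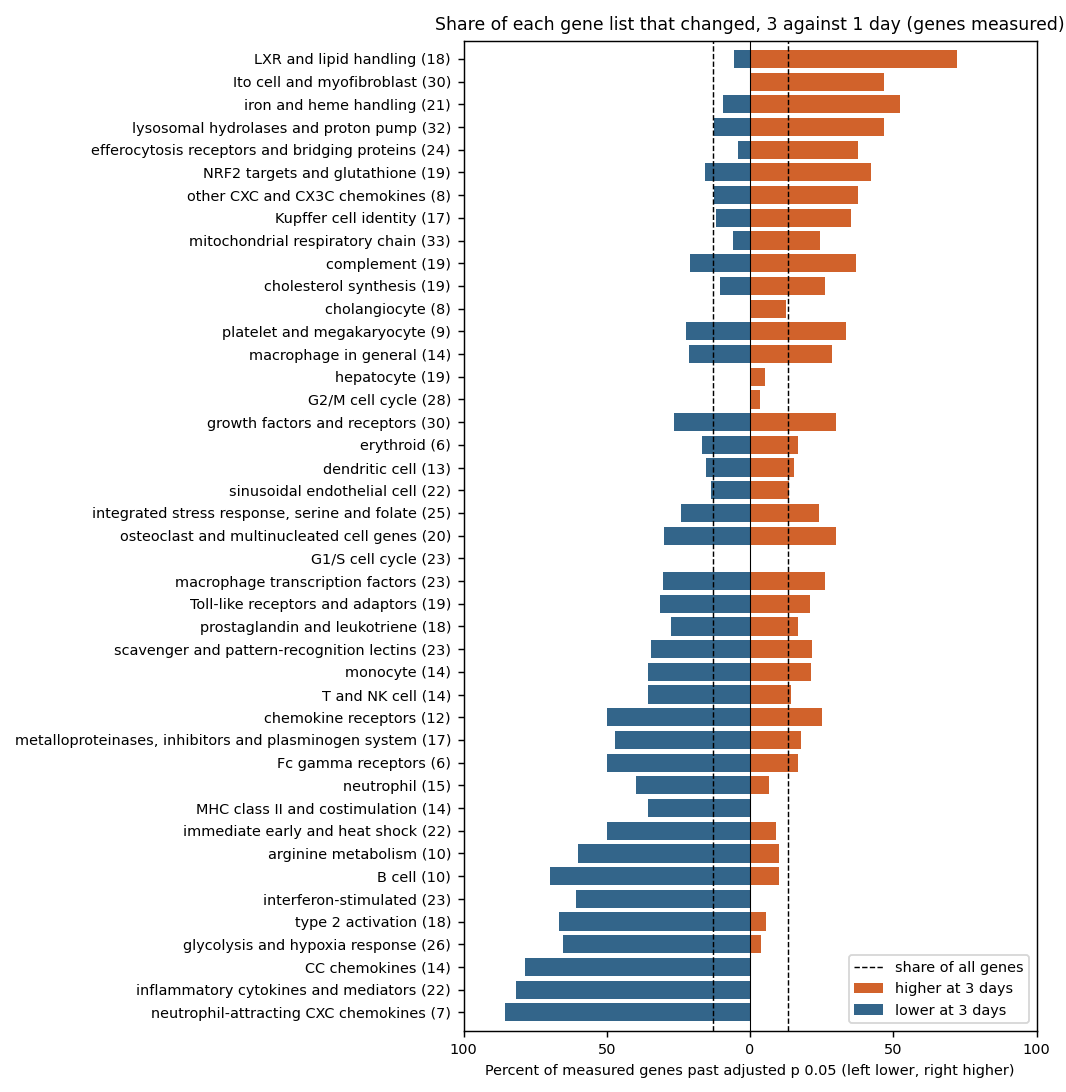
Percent of the measured genes of each list that passed an adjusted p of 0.05 with all 6 arrays (bars to the right are higher at 3 days, bars to the left lower), with the number of genes measured in brackets. Dashed lines mark the shares over all genes, 13.3% higher and 13% lower. Chemokine and inflammatory lists reach farthest to the left and lipid, iron, lysosome and Ito cell lists farthest to the right.

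Genes of arginine use and of type 2 activation also fell. Arg1, arginase 1, which splits arginine and marks macrophages exposed to interleukin-4 or low oxygen, read 8.70, 9.05 and 9.58 in the 3 day arrays, against 19.01, 19.01 and 18.96 in the 1 day arrays. Its 1 day values lay near the top of the array scale, and the difference of -9.88 ± 0.24 (adjusted p = 1.4e-07) was as large without replicate 3, at -10.12. The arginine transporters Slc7a2 and Slc7a1 were 11.8-fold lower and 2.75-fold lower, and Odc1, the first enzyme of polyamine synthesis, was 3.94-fold lower. Of 18 type 2 genes 12 fell and 1 rose. Retnla was at least 6.22-fold lower, Chil3, which encodes a chitinase-like protein, was 30.2-fold lower, and Pdcd1lg2, a ligand of the T cell checkpoint PD-1, was at least 5.83-fold lower. Socs3, an inhibitor of cytokine signalling, was at least 45.3-fold lower. Mrc1, the mannose receptor, read 14.62, 14.66 and 15.31 at 3 days, against 17.45, 17.51 and 16.74 at 1 day, a difference of -2.37 ± 0.28 (adjusted p = 0.00052). The gene that rose was Cd209a, a lectin of dendritic cells, at 9.92, 9.49 and 4.43 at 3 days, against 4.38, 4.23 and 3.84 at 1 day. Replicate 3 lay close to the 1 day arrays, which were at background. Cd209a was at least 4.05-fold higher with 6 arrays and at least 13.7-fold higher without replicate 3.

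Glycolysis and hypoxia genes were lower at 3 days. Of 26 genes 17 fell and 1 rose, with a median difference of -1.70, and 20 fell without replicate 3. Slc16a3, the lactate exporter, read 10.49, 10.81 and 11.34 in the 3 day arrays, against 15.11, 15.07 and 15.24 in the 1 day arrays, a difference of -4.26 ± 0.24 (adjusted p = 1e-05). Hk2, the hexokinase of glycolytic cells, was 8.04-fold lower, and the glucose transporter Slc2a1 was 3.88-fold lower. Egln3, an oxygen sensor that is itself induced by low oxygen, was 19.4-fold lower, and Ero1a, which drives protein folding in the endoplasmic reticulum, was 22.0-fold lower. Ndrg1, a stress gene, was the member that rose, at least 2.44-fold higher. Vegfa, the angiogenic factor that low oxygen induces, had a difference of 0.00 and did not pass. Subunits of the mitochondrial respiratory chain gave no common direction: 8 of 33 rose, 2 fell, and without replicate 3 the counts were 9 and 9. The sign of that list's median turns with the scaling.

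Immediate early genes and interferon-stimulated genes were lower as groups. Of 22 immediate early and heat shock genes 11 fell and 2 rose. Ier3, an early response gene of stress, read 9.75, 10.43 and 9.62 at 3 days, against 15.72, 16.20 and 16.25 at 1 day, a difference of -6.12 ± 0.27, and Fos and Egr1, transcription factors of the first response to growth factors, were 9.76-fold lower and 8.13-fold lower. Of 23 interferon-stimulated genes 14 fell and none rose (3 at an unadjusted p under 0.05), with a median difference of -1.42. The mean level of that list was 7.69, 7.83 and 8.57 on the 3 day arrays, against 9.28, 9.30 and 9.28 on the 1 day arrays. Replicate 3 lay between the other 3 day arrays and the 1 day arrays there. Irf7, the master regulator of interferon genes, differed by -5.42 ± 0.67 (adjusted p = 0.00065), and Zbp1, a sensor of nucleic acid, was 6.88-fold lower. Without replicate 3 Irf7 differed by -6.38.

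Genes that rose included many with a place in the disposal of dead cells. Of 24 efferocytosis receptors and bridging proteins 9 rose and 1 fell. The gene that fell, Havcr1, was chosen for mention after its values were seen and was not above background in either group. Gas6, which bridges phosphatidylserine on dying cells to Mertk and Axl, read 14.22, 14.50 and 14.13 in the 3 day arrays, against 7.81, 6.50 and 7.05 in the 1 day arrays. Replicate 3 lay beside its group, and the difference was 7.17 ± 0.32 (adjusted p = 2.4e-06). Pros1, the other bridging protein of these receptors, was 6.32-fold higher. Mertk itself read 14.13, 14.38 and 12.93 at 3 days, against 11.13, 10.56 and 10.95 at 1 day, a difference of 2.93 ± 0.37 (adjusted p = 0.00067), and Axl was 5.96-fold higher. Mfge8, which bridges phosphatidylserine to integrins, read 14.03, 14.17 and 12.73 at 3 days, against 7.33, 7.18 and 6.92 at 1 day, a difference of 6.50 ± 0.36. The beta chains of those integrins, Itgb5 and Itgb3, were 4.70-fold higher and at least 1.14-fold higher. Timd4, a phosphatidylserine receptor of resident macrophages, read 6.76, 6.54 and 8.69 at 3 days, against 5.93, 5.76 and 5.82 at 1 day. It did not pass with 6 arrays (adjusted p = 0.0545) and passed without replicate 3, at a difference of 0.82 (adjusted p = 0.0111).

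Lipid handling genes had the largest share of rises among the lists. Of 18 genes 13 rose and 1 fell, with and without replicate 3, and the median difference was 1.07. Pltp, which transfers phospholipid to lipoproteins, read 17.14, 16.98 and 14.60 in the 3 day arrays, against 11.72, 10.96 and 10.76 in the 1 day arrays, a difference of 5.09 ± 0.61 (adjusted p = 0.00056). Replicate 3 was the lowest 3 day value and lay above all 1 day values. Lpl, lipoprotein lipase, was 18.0-fold higher, and Lipa, the lysosomal acid lipase, was 12.7-fold higher. Fabp4, a fatty acid carrier, was 15.3-fold higher, and Abcg1, a cholesterol exporter, was 3.33-fold higher. Apoe, the lipoprotein of macrophage cholesterol export, read 19.26, 19.34 and 19.04 at 3 days, against 15.51, 15.60 and 15.87 at 1 day, near the top of the array scale, a difference of 3.55 ± 0.19. Pparg, the nuclear receptor that governs many of these genes, was at least 2.27-fold higher. Nr1h3, the oxysterol receptor LXR alpha, differed by 0.26 ± 0.36 and did not pass (adjusted p = 0.643). Cyp27a1, which makes an oxysterol that activates LXR, rose and read 11.23, 11.37 and 7.65 at 3 days, against 5.24, 4.83 and 4.88 at 1 day. Ch25h, which makes another oxysterol, fell and read 4.85, 5.21 and 9.58 at 3 days, against 15.50, 15.57 and 15.34 at 1 day. The member that fell was Scd1, a fatty acid desaturase, at least 2.52-fold lower. Without replicate 3 Pltp differed by 5.91 and Fabp4 by 4.64.

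The lysosome list rose in part. Of 32 hydrolases, membrane proteins and proton pump subunits 15 rose and 4 fell, and 17 and 5 did so without replicate 3. Atp6v0d2, the pump subunit of macrophages and osteoclasts, read 16.49, 16.75 and 13.92 in the 3 day arrays, against 7.43, 7.11 and 7.23 in the 1 day arrays. That was a difference of 8.46 ± 0.64 (adjusted p = 4.6e-05), with replicate 3 between its group and the 1 day arrays. Hexa, a hexosaminidase, and Ctsa, which protects other hydrolases, were 5.70-fold higher and 3.39-fold higher. Ctsl, cathepsin L, was 7.81-fold lower. The Ctsa window is printed because it holds 2 matches to TCANGTGA. This is a loosened form of TCACGTGA, the core of the CLEAR element that TFEB binds in lysosomal genes. Of the 2 matches 1 is TCACGTGA, and the other, TCACCTGA, differs from it in 1 base.
Ctsa at chr2:164833523-164833772, plus strand, GRCm38.p6 from RefSeq, matches on either strand in capitals: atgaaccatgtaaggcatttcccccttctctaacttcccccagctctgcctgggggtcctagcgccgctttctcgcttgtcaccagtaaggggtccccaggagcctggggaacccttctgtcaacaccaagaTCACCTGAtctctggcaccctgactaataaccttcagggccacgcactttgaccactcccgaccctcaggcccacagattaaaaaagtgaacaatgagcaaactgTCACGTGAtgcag
Such a match is present in 5 of 30 windows of the lysosome list (26 of its 32 genes matched the table), against 1135 of 32851 windows in all, 3.45%. Mitf, a relative of TFEB, differed by 0.38 ± 0.27 and passed only without replicate 3 (difference 0.69, adjusted p = 0.0255). Gpnmb, a lysosomal membrane glycoprotein, and Trem2, a lipid-sensing receptor, read 19.54, 19.44 and 19.42 at 3 days, against 16.16, 15.90 and 16.14 at 1 day and 16.15, 16.11 and 15.50 at 3 days, against 12.60, 12.45 and 12.51 at 1 day. They differed by 3.40 ± 0.18 and 3.40 ± 0.22 (adjusted p = 6.2e-06 and 2.1e-05), the first near the top of the array scale. Hpse, heparanase, and Slc46a3, a lysosomal transporter, were 86.9-fold higher and 72.0-fold higher. Without replicate 3 Atp6v0d2 differed by 9.36 and Slc46a3 was 113-fold higher.

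Iron handling and antioxidant genes rose more often than they fell. Of 21 iron genes 11 rose and 2 fell. Slc40a1, ferroportin, the cell's iron exporter, read 13.52, 13.60 and 11.35 in the 3 day arrays, against 7.25, 6.94 and 7.50 in the 1 day arrays, a difference of 5.60 ± 0.54 (adjusted p = 0.00017). Cp, the ferroxidase ceruloplasmin, was at least 8.34-fold higher, and Hfe, a regulator of hepcidin, was 2.52-fold higher. Lcn2, which binds bacterial iron carriers, was one of those that fell and read 5.12, 4.82 and 10.04 at 3 days, against 11.78, 12.19 and 11.87 at 1 day, with replicate 3 nearer to the 1 day arrays. Fth1 and Ftl1, the ferritin chains, differed by -0.03 ± 0.17 and -0.06 ± 0.18 and did not pass. Of 19 NRF2 target and glutathione genes 8 rose and 3 fell. Ephx1, epoxide hydrolase, read 14.11, 14.58 and 12.49 at 3 days, against 6.47, 7.22 and 7.02 at 1 day, a difference of 6.82 ± 0.48, and Cat, catalase, was 18.3-fold higher. Slc7a11, the cystine importer, was 39.6-fold lower, and Gsr, glutathione reductase, was 3.10-fold lower. Gpx3, a secreted glutathione peroxidase, read 12.38, 11.92 and 9.54 at 3 days, against 5.25, 5.35 and 5.08 at 1 day and was at least 41.0-fold higher. Without replicate 3 Slc40a1 differed by 6.33, Ephx1 differed by 7.44 and Gpx3 was at least 74.9-fold higher.

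Single genes outside the lists are among the 25 largest changes as well. Tmem176b, a membrane protein of macrophages and dendritic cells, read 15.02, 14.90 and 11.54 at 3 days, against 8.21, 7.96 and 7.25 at 1 day, and Rasgrp3, an activator of Ras, read 11.59, 11.71 and 10.55 at 3 days, against 6.27, 5.89 and 6.18 at 1 day. Tarm1, an activating receptor of myeloid cells, fell and read 5.74, 4.85 and 7.00 at 3 days, against 13.78, 13.57 and 13.66 at 1 day. Tnfrsf9, the costimulatory receptor 4-1BB, read 4.28, 4.03 and 4.31 at 3 days, against 11.63, 11.56 and 11.41 at 1 day and was at least 53.8-fold lower. Ifitm1, an interferon-induced membrane protein, read 8.69, 7.89 and 7.82 at 3 days, against 15.66, 15.21 and 15.44 at 1 day, a difference of -7.30 ± 0.27. That the 3 day and 1 day arrays did not overlap on these genes was a condition of their choice.

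Growth factors changed in both directions. Of 30 genes 9 rose and 8 fell. Igf1, insulin-like growth factor 1, read 19.19, 19.04 and 18.64 in the 3 day arrays, against 12.21, 12.11 and 11.78 in the 1 day arrays, near the top of the scale at 3 days. The difference was 6.92 ± 0.22 (adjusted p = 5.8e-07), and replicate 3 lay close to its group. Csf1r, the MCSF receptor on which the cells were sorted, read 17.88, 18.26 and 17.68 at 3 days, against 15.86, 15.76 and 15.81 at 1 day, a difference of 2.14 ± 0.20 (adjusted p = 0.00017). Csf1, which encodes MCSF itself, differed by -0.07 ± 0.55 with 6 arrays and by 0.70 without replicate 3, where it passed (adjusted p = 0.0238). Hgf, hepatocyte growth factor, read 10.20, 10.10 and 8.37 at 3 days, against 7.56, 7.78 and 6.68 at 1 day and was 4.64-fold higher (adjusted p = 0.011), and its receptor Met was 7.22-fold lower. Ereg, an EGF receptor ligand, was at least 55.5-fold lower, and Inhba, the activin A subunit, was 8.01-fold lower. Nrg1, a ligand of the ERBB receptors, fell and read 5.31, 5.40 and 4.84 at 3 days, against 12.23, 11.85 and 12.01 at 1 day. Among proteases, Mmp9 (gelatinase B) and Mmp13 (a collagenase) were 98.1-fold lower and 55.0-fold lower, whereas Mmp2 (gelatinase A) and the inhibitor Timp3 were at least 1.80-fold higher and at least 1.95-fold higher. Without replicate 3 Hgf was 6.99-fold higher and Timp3 was at least 2.92-fold higher.

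Markers of the monocyte and of the macrophage in general changed in both directions. Of 14 monocyte markers 5 fell and 3 rose, against 13% lower and 13.3% higher over all genes. Ly6c2, which marks classical monocytes, read 6.94, 7.59 and 7.06 in the 3 day arrays, against 9.86, 10.08 and 10.44 in the 1 day arrays, a difference of -2.93 ± 0.24 (adjusted p = 8e-05). Vcan and F13a1, a proteoglycan and a clotting factor of classical monocytes, were 81.2-fold lower and 26.1-fold lower. Itgal, the integrin LFA-1 alpha chain, which is high on patrolling monocytes, was 12.2-fold higher. Of 14 general macrophage markers 4 rose and 3 fell. Adgre1, an adhesion receptor used as a general marker of mouse macrophages, read 16.03, 16.11 and 16.24 at 3 days, against 15.57, 15.49 and 15.69 at 1 day: the groups did not overlap, and the difference of 0.55 ± 0.18 did not pass (adjusted p = 0.0513). All 6 arrays carried high signals of Adgre1 and of Csf1r, the CD115 that their titles name. Fcgr1, the high-affinity IgG receptor, and Itgam, CD11b, were 6.50-fold lower and 5.14-fold lower.

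Of 17 Kupffer cell identity genes 6 rose and 2 fell, and 9 rose without replicate 3. Vsig4, a complement receptor of Kupffer cells, read 14.05, 14.19 and 14.55 in the 3 day arrays, against 10.17, 10.22 and 10.45 in the 1 day arrays, a difference of 3.98 ± 0.20 (adjusted p = 5.7e-06). Cd5l, a secreted scavenger protein, read 11.02, 11.47 and 8.43 at 3 days, against 4.20, 3.69 and 3.92 at 1 day and was at least 20.8-fold higher. Id3, a regulator that Kupffer cells depend on, was at least 9.06-fold higher, and its relative Id1 was 6.37-fold lower. Marco, a scavenger receptor, read 9.59, 10.24 and 15.28 at 3 days, against 8.58, 8.61 and 8.33 at 1 day, with replicate 3 far above the others. It did not pass with 6 arrays (adjusted p = 0.0906) and passed without that array at a smaller difference of 1.41 (adjusted p = 0.00091). Clec4f, the lectin that defines Kupffer cells in mice, was not above background in either group, nor were Cd163, C6 and Clec1b. Among 23 macrophage transcription factors 6 rose and 7 fell. Cebpa was 6.41-fold higher and Cebpb was 6.49-fold lower. Bhlhe41 was 6.84-fold higher, Tfec was 12.9-fold lower and Klf2 was at least 5.57-fold lower. Maf, which keeps macrophages out of cycle, did not pass (difference 0.32 ± 0.23, adjusted p = 0.359). Without replicate 3 Cd5l was at least 39.9-fold higher and Id1 was 13.8-fold lower.

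Receptors for microbes changed in both directions, and genes that act on T cells fell in part with 6 arrays. Of 19 Toll-like receptors and adaptors 6 fell and 4 rose, and 6 fell and 7 rose without replicate 3. The median difference of that list was -0.17 with 6 arrays and 0.03 without replicate 3. Tlr4, the receptor of bacterial lipopolysaccharide, was 5.35-fold lower and Tlr2, which senses lipoproteins, was 2.48-fold lower. The adaptors Ticam1 and Ticam2, through which Tlr4 reaches interferon genes, were 2.22-fold higher and 3.06-fold higher. Of 14 MHC class II and costimulation genes 5 fell and none rose (2 at an unadjusted p under 0.05). Cd274, the checkpoint ligand PD-L1, was 7.47-fold lower, and Cd86 and Cd80, which costimulate T cells, were 5.56-fold lower and 2.16-fold lower. H2-Aa, a chain of the class II molecule, read 12.31, 12.46 and 9.19 at 3 days, against 10.97, 10.55 and 10.94 at 1 day. It did not pass with 6 arrays (adjusted p = 0.667) and was higher without replicate 3, by 1.56 (adjusted p = 0.00022), as were H2-Ab1 and H2-Eb1, by 1.77 and 1.39. Complement genes split, with 7 of 19 higher and 4 lower. C1qc, a chain of the first complement component, was 3.05-fold higher, and Cfb, factor B of the alternative pathway, was 13.1-fold lower. Fcgrt, the neonatal Fc receptor that recycles IgG, was 21.3-fold higher. Without replicate 3 Cd86 was 3.05-fold lower and Cfb was 22.6-fold lower.

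Some genes of matrix and contractile cells were among the largest rises, while most markers of that kind did not pass. Sparc, a collagen-binding matrix protein and the largest rise of all, read 14.79, 15.04 and 12.83 in the 3 day arrays, against 4.59, 5.44 and 4.36 in the 1 day arrays and was at least 314-fold higher (adjusted p = 1.2e-05). Bgn, the proteoglycan biglycan, read 12.98, 12.98 and 10.72 at 3 days, against 4.93, 5.02 and 3.87 at 1 day and was at least 78.9-fold higher. Col1a2, a chain of type I collagen, read 9.57, 10.18 and 8.45 at 3 days, against 4.28, 3.80 and 4.04 at 1 day and was at least 11.1-fold higher. On all these genes replicate 3 was the lowest 3 day array and stood clear of the 1 day arrays. Acta2, the smooth muscle actin of myofibroblasts, read 11.70, 11.50 and 10.51 at 3 days, against 6.39, 5.82 and 5.79 at 1 day, a difference of 5.24 ± 0.33, and Tagln, a smooth muscle protein, was at least 8.70-fold higher. Des, desmin, was at least 1.04-fold higher. Among secreted genes outside the list, Grem1, an inhibitor of BMPs, read 8.12, 8.50 and 6.58 at 3 days, against 2.83, 2.57 and 2.54 at 1 day, and Igfbp7, a binding protein of insulin-like growth factors, read 11.93, 11.88 and 9.95 at 3 days, against 5.72, 6.32 and 6.57 at 1 day. In all, 14 of 30 Ito cell and myofibroblast markers rose and none fell (1 at an unadjusted p under 0.05), 6 of the rises being among genes not above background in either group, and the median difference was 0.72. In all, 19 of the 30 were not above background in either group. The mean level of the list was 5.88 to 6.52 on the 3 day arrays, against 4.59 to 4.64 on the 1 day arrays. Lrat, Gfap, Hand2 and Lhx2, which define the Ito cell, and Lum were not above background in either group. These cultures were labelled as free of added Ito cells, and the part of contractile cells in the rise was not tested. Without replicate 3 Sparc was at least 508-fold higher and Bgn was at least 133-fold higher.

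Several markers of lymphocytes and neutrophils fell, though many in those lists were at background. Markers of endothelial cells and hepatocytes were mostly at background. Of 10 B cell markers 7 fell and 1 rose, and 5 were not above background in either group, 4 of them among the genes called. Their mean level was 4.31 to 4.67 on the 3 day arrays, against 5.64 to 5.68 on the 1 day arrays. Cd79a, a chain of the B cell receptor, read 3.82, 4.06 and 3.69 at 3 days, against 8.32, 8.10 and 8.01 at 1 day and was at least 5.13-fold lower, and Ebf1, a B cell transcription factor, was at least 3.02-fold lower. The member that rose was Cd22, at least 6.71-fold higher. Of 14 T and NK cell markers 5 fell and 2 rose, and 8 were not above background in either group, 2 of them among the genes called. The mean level of that list was 5.14 to 5.47 on the 3 day arrays, against 5.53 to 5.66 on the 1 day arrays. Cd3e, a chain of the T cell receptor complex, read 3.10, 3.01 and 3.40 at 3 days, against 5.37, 5.38 and 5.90 at 1 day. The 1 day values lay near the negative controls and the 3 day values under them. Of 15 neutrophil markers 6 fell and 1 rose, and 8 were not above background in either group, 1 of them among the genes called. The mean level of that list was 5.60 to 5.80 on the 3 day arrays, against 6.81 to 6.89 on the 1 day arrays. Retnlg and S100a9 were at least 10.2-fold lower and at least 3.89-fold lower, while Elane, Mpo, Camp and Ngp, which encode granule proteins, were not above background at either time. Of 22 endothelial markers 3 rose and 3 fell, and Cdh5, Stab2 and Lyve1 were at background throughout. Of 19 hepatocyte markers 18 were not above background in either group. The part of lymphocytes and neutrophils in the falls described above was not tested.

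**Figure D3:**
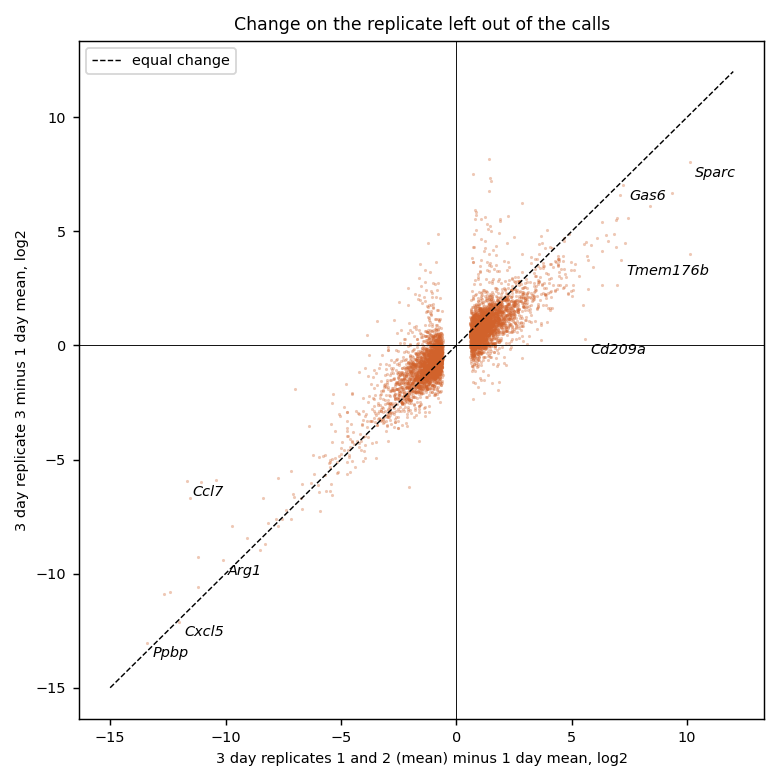
Change against the 1 day mean, in log2 units, on 3 day replicate 3 (y axis) and as the mean of 3 day replicates 1 and 2 (x axis), for the 6324 genes called without replicate 3. Each point is 1 gene, and the dashed line marks equal change. Most genes lie on the same side of 0 on both axes, Ccl7 and Cd209a changed less on replicate 3, and a vertical spread of genes near 0 to 3 on the x axis lies far above the line.

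Replicate 3 took no part in the calls of the fit without it. Its change and that of the other arrays are measured from the same 1 day mean, on which the calls rest too, so some likeness is built in and the shares are given as a description. Of those 6324 genes, 5795 (91.6%) lay on the same side of the 1 day mean in replicate 3 as in the other 3 day arrays. In 4182 genes (66.1%) replicate 3 lay between the 1 day mean and the other 3 day arrays, in 1613 (25.5%) it lay beyond them, and in 529 (8.4%) it lay on the other side. The median share of the change that it showed was 72.9%, 68.2% for genes that rose and 78.7% for genes that fell. It stood more than 1 log2 unit above the mean of replicates 1 and 2 in 902 genes and below it in 794, against 219 genes that differed so far between replicates 1 and 2.

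What set replicate 3 apart most was the cell cycle. Ccna2, cyclin A2, which drives DNA replication and entry into mitosis, read 5.04, 5.45 and 12.16 in the 3 day arrays, against 5.36, 5.05 and 5.04 in the 1 day arrays. Only replicate 3 was high. Plk1, a mitotic kinase, read 6.86, 6.42 and 12.80 at 3 days, against 6.96, 6.35 and 6.53 at 1 day, and Ube2c, which marks cyclins for destruction, read 5.62, 5.54 and 12.31 at 3 days, against 4.28, 4.21 and 3.97 at 1 day. Mki67, the antigen Ki-67 of dividing cells, read 10.67, 10.74 and 15.57 at 3 days, against 9.91, 9.90 and 9.79 at 1 day and did not pass with 6 arrays (adjusted p = 0.14). It passed without replicate 3, at a smaller difference of 0.84 (adjusted p = 0.00814), with replicates 1 and 2 above all 1 day arrays. The mean of 28 G2/M genes was 5.55, 5.67 and 10.58 on the 3 day arrays, against 5.41, 5.29 and 5.26 on the 1 day arrays. The mean of 23 G1/S genes was 6.57, 6.65 and 9.58 on the 3 day arrays, against 7.15, 7.31 and 7.18 on the 1 day arrays. In limma with 6 arrays 0 of the G1/S genes rose or fell, 0 also at an unadjusted p under 0.05, and 1 G2/M gene rose (7 at an unadjusted p under 0.05), Birc5, an inhibitor of cell death that acts in mitosis. With the spread shared over all 48 arrays, 17 G2/M genes and 1 G1/S gene rose. Without replicate 3, 9 G1/S genes fell and none rose, while 8 G2/M genes rose and 2 fell. Pclaf, a PCNA-binding factor, turned its sign: its difference was 0.69 ± 1.30 with 6 arrays and -1.21 without replicate 3 (adjusted p = 0.00142). On the deposited scale the G2/M mean of replicate 3, 10.68, was above those of the 3 monocytic cultures with Ito cells at 3 days (10.01 to 10.28) and with HGF (9.43 to 9.60). Replicates 1 and 2, at 5.66 and 5.82, were beside the CD146 cultures at 3 days (5.68 to 5.95). Genes lowest in replicate 3 against its group were Cd209a, Mamdc2, a matrix protein, and Thbs1, thrombospondin 1, which read 16.34, 16.17 and 12.11 at 3 days, against 18.31, 18.49 and 18.12 at 1 day.

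**Figure D4:**
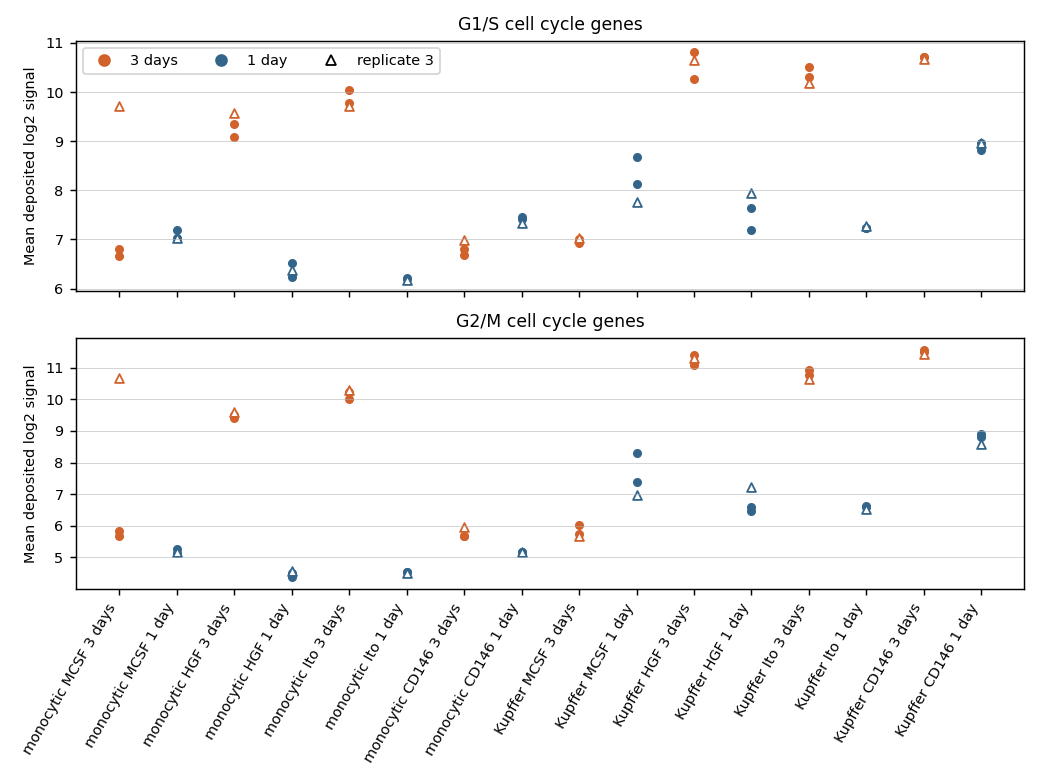
Mean deposited log2 signal of the G1/S genes (top) and the G2/M genes (bottom) on each of the 48 arrays, by group, with 3 days in orange, 1 day in blue and replicate 3 of each group as a triangle. In the monocytic MCSF group at 3 days replicate 3 lies at 9.71 and 10.68, far above the other replicates, and in the other groups the triangle lies among or near the circles.

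Kupffer cells kept in the same medium for the same times gave a second series of arrays to set beside the monocytic cells, 3 arrays at each time, sharing none with them. In a fit over the 12 arrays, the 3 minus 1 day change differed between the macrophage types in 2166 genes, 11.1% of those tested, with the monocytic change above the Kupffer change in 1034 (5.30%) and below it in 1132 (5.80%). Il1b fell in monocytic macrophages, with a change of -8.54, against a rise of 4.21 in Kupffer cells. The arrays read 15.51, 16.40 and 16.88 in Kupffer cells at 3 days, against 12.76, 11.74 and 11.67 at 1 day, and the difference of changes was -12.75 ± 0.62 (adjusted p = 3.7e-07). Lcn2, Cfb and Ly6i, genes of the acute inflammatory response, likewise changed by -5.18, -3.61 and -2.77 in monocytic macrophages, against 6.34, 6.76 and 6.99 in Kupffer cells. Susd2, a membrane protein, was at background in all monocytic arrays and read 15.95, 16.74 and 16.73 in Kupffer cells at 3 days, against 3.44, 3.51 and 3.25 at 1 day. Ccl5 changed by -0.58 in monocytic macrophages, against 10.54 in Kupffer cells. For Lcn2, Cfb, Ly6i and Ccl5 the Kupffer arrays at 1 day lay far apart, with replicate 1 lowest. They read 10.83, 14.03 and 13.75 for Lcn2 and 7.11, 10.37 and 10.66 for Cfb. For Ly6i they read 8.15, 12.21 and 12.06, and for Ccl5 4.68, 8.81 and 9.22. The part of that spread in these differences was not tested.

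Kupffer cell identity genes differed in both directions: of 17, the monocytic change lay above the Kupffer change in 6 and below it in 3. Slc40a1 changed by 5.48 in monocytic macrophages, against -5.80 in Kupffer cells. Cd5l, at background in the monocytic arrays at 1 day, changed by at least 4.30 in monocytic macrophages, against -5.17 in Kupffer cells. For Cd5l the arrays read 7.54, 7.63 and 8.14 in Kupffer cells at 3 days, against 14.82, 12.84 and 11.17 at 1 day, so that the monocytic arrays at 3 days lay above the Kupffer arrays at 3 days. Vsig4 rose by 3.96 and Id3 by at least 3.14 in monocytic macrophages, and they differed by -0.39 and -0.79 in Kupffer cells (adjusted p = 0.398 and 0.231). On the other side Timd4 changed by 1.46 in monocytic macrophages, against 4.06 in Kupffer cells, and Nr1h3 by 0.25, against 3.81. Among the named genes the largest difference above 0 was that of Clu, clusterin, an extracellular chaperone. It was at background in the monocytic arrays at 1 day and changed by at least 2.86 in monocytic macrophages, against -8.07 in Kupffer cells (difference at least 10.93, adjusted p = 2.4e-05). The largest differences above 0 also took in Alb (albumin), Cdh5 (the endothelial cadherin) and Adgrl4 (an endothelial adhesion receptor). These 3 were at background in the monocytic arrays at both times and in the Kupffer arrays at 3 days, so those differences are the fall in the Kupffer cultures. The Kupffer arrays at 1 day lay far apart, with replicate 1 highest and replicate 3 lowest for Alb, Cdh5, Adgrl4, Clu, Cd5l and Slc40a1. They read 16.84, 14.90 and 13.51 for Alb, 16.18, 13.09 and 10.95 for Cdh5, 18.12, 16.37 and 14.85 for Clu and 14.48, 13.19 and 11.49 for Slc40a1. For Id3 they read 7.93, 6.31 and 5.67, and for Nr1h3 8.87, 7.17 and 6.34. The part of that spread in the differences of Cd5l, Slc40a1, Clu, Id3 and Nr1h3 was not tested. Of the inflammatory list 12 of 22 genes changed less upward or more downward in monocytic macrophages, against 5.80% of all genes. The counts were 18 of 26 in the glycolysis and hypoxia list and 18 of 23 in the interferon list. The part of the Kupffer spread at 1 day in these counts was not tested. Of the 7 neutrophil-attracting chemokines 6 had a monocytic change below the Kupffer change. The median change of that list in Kupffer cells was -3.18. Cxcl2 changed by -10.58 in monocytic macrophages, against -4.31 in Kupffer cells (adjusted p = 0.00127), and the difference of changes passed (adjusted p = 0.00261).

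**Figure D5:**
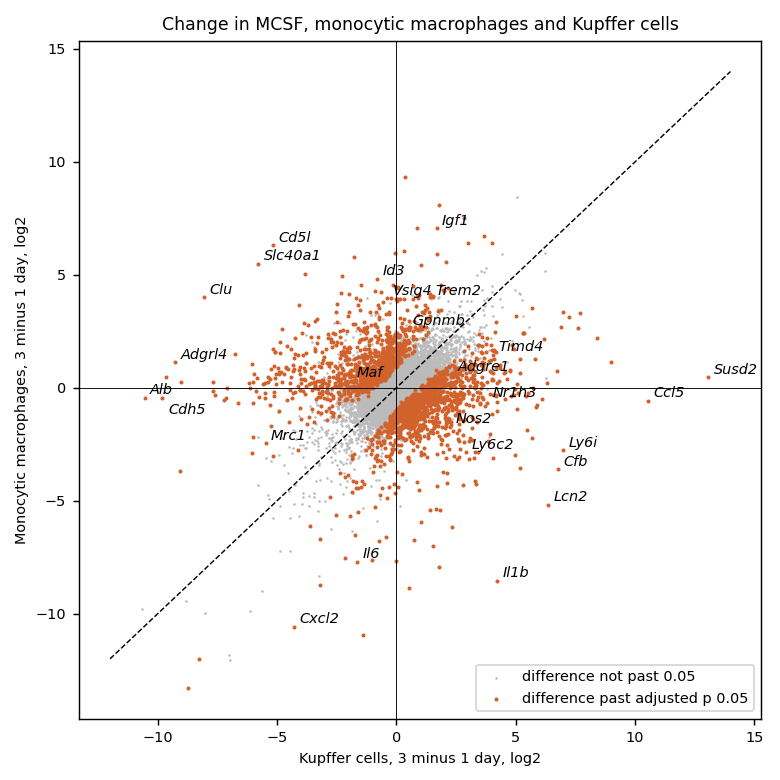
Change from 1 to 3 days in MCSF, as the 3 day mean minus the 1 day mean in log2 units, in monocytic macrophages (y axis) and Kupffer cells (x axis), from the fit over 12 arrays. Each point is 1 gene, orange where the changes differed at an adjusted p under 0.05 (2166 genes), and the dashed line marks equal change. Il1b and Lcn2 lie at the lower right and Clu, Cd5l and Slc40a1 at the upper left.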

How the data were processed

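RNA of 48 cultures was measured on mouse expression arrays, 3 per group. The deposited table holds log2 values of 28846 rows, made by the authors with RMA in the Transcriptome Analysis Console, per the submitters' processing notes (versions not given in the sources used here). Deposited values reached 19.93, and a gene called near the top of the scale lay within 1 log2 unit of that. The 22206 transcript probe sets of the 6 arrays were quantile normalized; 5222 negative control probe sets gave the background. Gene symbols came from the platform annotation: 19572 probe sets had 1 symbol and 2634 had none or several and were left out, and the brightest probe set stood for each of 19505 genes. Differences were tested with limma 3.58.1 in R 4.3.3 (lmFit, eBayes, two-sided, Benjamini-Hochberg over all genes, threshold 0.05), with all 6 arrays and without 3 day replicate 3, and as an interaction over 12 arrays with Kupffer cells. The code was tested on simulated data.

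Genes were named by rule: the 25 largest rises and falls that passed in both fits without overlap (unnamed gene models and near-identical families skipped), up to 8 members of each list by adjusted p, members given for not passing, the genes most apart in replicate 3, 6 interaction genes each way, and a fixed set of macrophage genes, some of which are not reported here. Members and lists were chosen with earlier results of these data known. Replicate numbers were not used as pairs in the main fits. Deviations of same-numbered arrays correlated at 0.0446, 0.00675 and 0.00667. With 3 arrays per group such values cannot show whether same-numbered cultures shared a source. Promoter windows are the 250 bases before the start in the RefSeq table of GRCm38.p6.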

Additional observations from a re-analysis of the deposited data

Results flagged for a closer look

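The 3 minus 1 day change differed between monocytic macrophages and Kupffer cells in 2166 genes, by the interaction test in limma. Values are fitted differences, the monocytic change minus the Kupffer change in log2 units, and are not bounds where a group was at background. Among the largest, Clu stood at 12.07, Cd5l at 11.47 and Slc40a1 at 11.28. Adgrl4 stood at 10.40, Alb at 10.11 and Cdh5 at 9.40, all at background in the monocytic arrays at both times. Clu and Cd5l were at background in the monocytic arrays at 1 day, and their differences were at least 10.93 and 9.48. On the other side Il1b stood at -12.75, Susd2 at -12.61, Lcn2 at -11.53, Ccl5 at -11.12, Cfb at -10.37 and Ly6i at -9.76. Susd2 was at background in the monocytic arrays at both times and in the Kupffer arrays at 1 day.

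Among the fixed macrophage genes the monocytic change lay above the Kupffer change for Id3 (5.63), Igf1 (5.37), Vsig4 (4.35), Mrc1 (3.02), Gpnmb (2.97), Trem2 (2.26) and Maf (2.21). For Mrc1 this is a smaller fall in monocytic macrophages, -2.46, against -5.48 in Kupffer cells. Maf changed by 0.31 in monocytic macrophages, against -1.90 in Kupffer cells. The monocytic change lay below the Kupffer change for Cxcl2 (-6.28), Il6 (-6.06), Ly6c2 (-5.77), Nos2 (-3.98), Nr1h3 (-3.56), Timd4 (-2.60) and Adgre1 (-1.78). Id3 was at background in the monocytic arrays at 1 day, and Il6 and Nos2 at 3 days. Ly6c2 changed by -2.85 in monocytic macrophages, against 2.92 in Kupffer cells, and Nr1h3 by 0.25, against 3.81. The Kupffer arrays at 1 day lay apart for some of these genes. They read 7.93, 6.31 and 5.67 for Id3 and 16.77, 16.14 and 14.62 for Igf1. For Mrc1 they read 13.73, 15.34 and 16.32, and for Gpnmb 18.96, 17.36 and 16.86. For Nr1h3 they read 8.87, 7.17 and 6.34, and for Il6 5.35, 8.09 and 8.78. For Trem2 they lay closer, at 11.98, 12.37 and 11.99. The part of that spread in these differences was not tested. Groups held 3 arrays each, which is too few for a test of single arrays that stand apart.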

How the results depend on the processing

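The count of 5115 genes stayed within 1.5 times under the other scalings, variance settings, filters and probe set rules tried, and became 3206 where a log2 difference of at least 1 was also asked. Leaving out 1 array gave 3506 to 6324 genes, the highest without 3 day replicate 3. The count of 6324 without that array became 3812 with the same minimum, and 3850 to 6299 with 1 more array left out. It was 3850 without 3 day replicate 1 and 4039 without 3 day replicate 2, where 1 array at 3 days is assumed to vary like the 1 day arrays. With the replicate block the counts were 4562 with 6 arrays, 6638 without replicate 3 and 1886 for the interaction. The count of 2166 interaction genes became 3652 where all 48 arrays shared 1 spread and 1370 to 2565 with 1 array left out, with 1370 without monocytic 1 day replicate 2 and 1428 without Kupffer 3 day replicate 2. Leaving out 1 array gave -1.21 to 1.72 for Pclaf and -0.52 to 0.70 for Csf1, and both turned their sign without 3 day replicate 3, to -1.21 and 0.70. Of 373 named results, 2 to 33 lost their call when 1 array was left out, and 0 to 13 under the other settings. Values near background and near the top of the scale understate change, and 9931 genes were not above background in either group.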

Other observations

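Genes of the circadian clock, a list written after their values were seen, changed in both directions: of 17 measured, 4 rose and 5 fell. Dbp, a transcription factor that oscillates with the clock, read 15.82, 15.60 and 14.32 in the 3 day arrays, against 9.60, 9.77 and 9.53 in the 1 day arrays, a difference of 5.61 ± 0.36 (limma adjusted p = 1.9e-05). Nr1d2, a nuclear receptor that represses clock genes, read 11.29, 11.38 and 11.07 at 3 days, against 8.61, 8.31 and 7.96 at 1 day, a difference of 2.95 ± 0.22, and Per3, a period gene, differed by 1.96 ± 0.40. In each of them the 3 day and 1 day arrays did not overlap. Arntl and Clock, the activators of the cycle, differed by -0.94 ± 0.22 and -0.94 ± 0.21, and Cry1, a repressor of it, by -1.07 ± 0.20. Per1 and Per2 did not pass (adjusted p = 0.193 and 0.579). The hour of day at which the cultures were harvested was not used here.

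Genes of cholesterol synthesis and of the integrated stress response gave smaller changes. Of 19 cholesterol synthesis genes 5 rose and 2 fell with 6 arrays, and 9 and 2 without 3 day replicate 3. Dhcr7, the last enzyme of the pathway, read 10.61, 10.13 and 9.61 at 3 days, against 6.90, 6.63 and 6.82 at 1 day, a difference of 3.33 ± 0.26 (adjusted p = 5.9e-05), whereas Sqle, squalene epoxidase, was 3.01-fold lower. Of 25 stress response, serine and folate genes 6 rose and 6 fell. Ddit4, an inhibitor of mTOR, was at least 1.22-fold lower, and Pck2, the mitochondrial PEP carboxykinase, was at least 1.83-fold higher. Among scavenger receptors and lectins, Olr1, the receptor of oxidised lipoprotein, read 7.96, 7.47 and 7.60 at 3 days, against 13.42, 14.05 and 13.65 at 1 day and was 65.4-fold lower, Msr1, scavenger receptor A, was 7.96-fold lower, and Scarb1, which takes up lipid from HDL, was 2.19-fold higher. Among genes of multinucleated cells Clcn7, a chloride channel of the osteoclast, was 3.73-fold higher, while Ocstamp, a fusion protein, was not above background in either group.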
